A study of Mus musculus with 48 samples.

Results

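Type I interferon response genes were followed in mouse airspace macrophages after lung injury, as 34 genes of the 24411 in the deposited table. They were chosen by name as interferon-stimulated genes, all 34 were in the table, and all 34 were among the 12634 genes with enough counts to be tested. Messenger RNA was measured in bulk in airspace macrophages of 24 male mice, 3 in each of 8 groups. Siglec-F knockout mice (KO), which lack the sialic acid-binding receptor encoded by Siglecf, received bleomycin, a drug that injures the lung, into the trachea at 2.5 units/kg and were sampled at day 7, 14 or 21, or were naive, given saline and marked day 0. Wild-type mice (WT) formed the same 4 groups. The naive groups were the only saline-treated mice, so day and treatment were not separated. Because the samples were bulk RNA, fewer cells of a type and less RNA per cell cannot be told apart. The macrophages came from bronchoalveolar lavage per the labels, and the sources used here do not say how they were separated from other lavage cells.

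Type I interferons, interferon-beta and the interferon-alphas, are secreted when cells sense viral or misplaced nucleic acid. They bind the receptor pair Ifnar1 and Ifnar2, whose kinases Jak1 and Tyk2 phosphorylate Stat2. Stat2 joins Irf9 in a complex that enters the nucleus, binds the interferon-stimulated response element in promoters, and induces genes that block viral entry, translation and genome copying. In alveolar macrophages, which take up inhaled material, the same genes are a known arm of antiviral defence.

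Library totals ran from 24877049 to 47457085 counts. Siglecf had 0 to 0.577 CPM in the 12 KO mice, against 66.3 to 481 CPM in the 12 WT mice, without overlap. Here CPM is the count scaled by edgeR to library depth. All 14 resident alveolar macrophage markers listed, such as Marco, Pparg and Chil3, had counts in every group. Markers of recruited monocytes and macrophages (16 genes, such as Ccr2 and C1qa) summed to 9188 to 15334 CPM in KO mice at day 7 against 571 to 968 CPM in naive KO mice, and to 8273 to 12856 CPM in WT mice at day 7 against 828 to 1496 CPM in naive WT mice. The sum of the 14 resident markers moved the other way. It was 9041 to 13355 CPM in KO mice at day 7 against 27388 to 28595 CPM in naive KO mice. In WT mice it was 9361 to 11803 CPM at day 7 against 24793 to 31126 CPM in naive WT mice. Much of this sum was Chil3, which averaged 18417 CPM in naive and 5896 CPM in day 7 KO mice, and 17068 and 5330 CPM in WT mice. Marco did not share the shift, with means of 759.5 and 729.9 CPM in naive and day 7 KO mice. In WT mice its means were 549.0 and 605.5 CPM. Conventional dendritic cell markers summed to 13.4 to 19.4 CPM at day 7 and 2.95 to 6.04 CPM in naive mice of both genotypes. T and NK cell markers summed to 15.8 to 30.2 CPM at day 7 and 0.676 to 1.78 CPM in naive mice of both genotypes. The sums over the same mice were 68.6 to 89.5 and 59.3 to 91.7 CPM for plasmacytoid dendritic cells, 132 to 179.9 and 107 to 159 CPM for neutrophils, and 89.98 to 251 and 202 to 286 CPM for epithelium. In the plasmacytoid list single genes moved in opposite directions. Runx2 averaged 60.6 CPM in naive and 30.8 CPM in day 7 KO mice, and 53.6 and 31.8 CPM in WT mice. Tcf4 averaged 10.1 and 29.3 CPM in KO mice, and 10.35 and 25.1 CPM in WT mice. Siglech, a defining marker of these cells, had at most 0.525 CPM in any naive or day 7 mouse. B cell and stromal markers stayed at or below 3.37 CPM in these mice. The part of these shifts in the bleomycin results was not tested.

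Promoter sequence was read from RefSeq (GRCm38.p6) for the 3 members with the largest and the 3 with the smallest log2 fold change at day 7 in WT mice that had an entry, so that strongly and weakly induced promoters can be compared. Each line gives 150 bases before the start site and 30 bases from it on, 5′ to 3′ along the gene. Capitals mark the core of the interferon-stimulated response element, GAAANNGAAA, found on either strand. The windows were chr3:151749881-151750060 (minus strand), chr7:141010715-141010894 (minus strand) and chr5:114896784-114896963 (plus strand) for the large changes, and chr2:62646226-62646405 (minus strand), chr11:101448262-101448441 (plus strand) and chr6:57580842-57581021 (plus strand) for the small ones.
Ifi44: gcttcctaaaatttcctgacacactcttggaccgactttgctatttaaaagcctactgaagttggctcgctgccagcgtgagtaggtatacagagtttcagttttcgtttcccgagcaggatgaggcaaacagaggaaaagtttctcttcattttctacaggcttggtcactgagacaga
Ifitm3: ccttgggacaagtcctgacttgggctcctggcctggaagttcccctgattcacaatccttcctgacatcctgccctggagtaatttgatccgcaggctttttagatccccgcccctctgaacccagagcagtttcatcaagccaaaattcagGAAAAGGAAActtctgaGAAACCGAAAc
Oasl2: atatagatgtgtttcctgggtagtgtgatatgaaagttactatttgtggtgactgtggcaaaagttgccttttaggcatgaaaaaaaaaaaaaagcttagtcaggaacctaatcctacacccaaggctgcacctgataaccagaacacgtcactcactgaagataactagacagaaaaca
Ifih1: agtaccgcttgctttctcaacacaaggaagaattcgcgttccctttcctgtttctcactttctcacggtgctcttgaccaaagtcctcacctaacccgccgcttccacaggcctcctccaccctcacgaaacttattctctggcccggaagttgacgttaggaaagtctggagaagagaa
Ifi35: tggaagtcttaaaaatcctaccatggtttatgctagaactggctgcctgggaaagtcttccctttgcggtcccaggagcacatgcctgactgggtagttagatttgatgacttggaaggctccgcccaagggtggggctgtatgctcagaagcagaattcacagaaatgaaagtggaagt
Herc6: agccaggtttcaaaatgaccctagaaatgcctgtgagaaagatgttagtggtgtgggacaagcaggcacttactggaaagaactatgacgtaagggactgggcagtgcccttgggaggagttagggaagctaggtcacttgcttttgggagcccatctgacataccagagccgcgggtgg
Of these 6 windows only that of Ifitm3 held the motif, in 2 copies at bases 3 to 12 and 20 to 29 from the start. Ifih1 had 1 copy just past the printed stretch, at bases 33 to 42. A missing match says only that these letters were not in the window.

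2 promoters with clear matches were added after the matches were seen, those of Isg15 at chr4:156200789-156200968 (minus strand) and Ifit1 at chr19:34640739-34640918 (plus strand).
Isg15: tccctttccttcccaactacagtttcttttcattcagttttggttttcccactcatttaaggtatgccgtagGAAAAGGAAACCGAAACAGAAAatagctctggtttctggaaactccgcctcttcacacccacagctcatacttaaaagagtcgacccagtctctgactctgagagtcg
Ifit1: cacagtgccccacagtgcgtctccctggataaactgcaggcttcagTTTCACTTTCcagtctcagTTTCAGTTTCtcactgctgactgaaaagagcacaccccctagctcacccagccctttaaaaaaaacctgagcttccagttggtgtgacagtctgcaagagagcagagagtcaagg
In Isg15 3 overlapping copies covered 22 bases, 78 to 57 bases before the start. In Ifit1 2 separate copies on the opposite strand lay 104 to 95 and 85 to 76 bases before it. In all, 24 of the 34 members had an entry in the promoter table, and 12 of these 24 held the motif in the full window of 250 bases before to 50 after the start. Among all tested genes with an entry, 369 of 9613 (3.84%) held it. The 12 were Ifit1, Ifit3, Isg15, Oas1a, Oas3, Stat2, Rsad2, Ifitm3, Bst2, Ddx58, Ifih1 and Trim30a. The 12 without it included Irf7, Oasl2, Cmpk2 and Xaf1, so strongly and weakly induced genes stood on both sides. The motif TTCNNNGAA, the core of the gamma-activated site, was in 6 of the 24 members and in 8.32% of tested genes. The matches are a description of these windows only.

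Bleomycin raised nearly all members at day 7 in both genotypes. In KO mice 30 of 34 were called higher than in naive KO mice, where 19.7% of all tested genes were called higher, and in WT mice 32 of 34, where the share was 20.2% (edgeR quasi-likelihood test, Benjamini-Hochberg adjusted p under 0.05). No member was called lower at day 7. The median log2 fold change of the members was 2.84 in KO mice and 2.76 in WT mice, and that of all tested genes was 0.02 in each. The WT median was also 2.76 with Ifi44, which had no counts in naive WT mice, set to its lower bound.

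**Figure D1:**
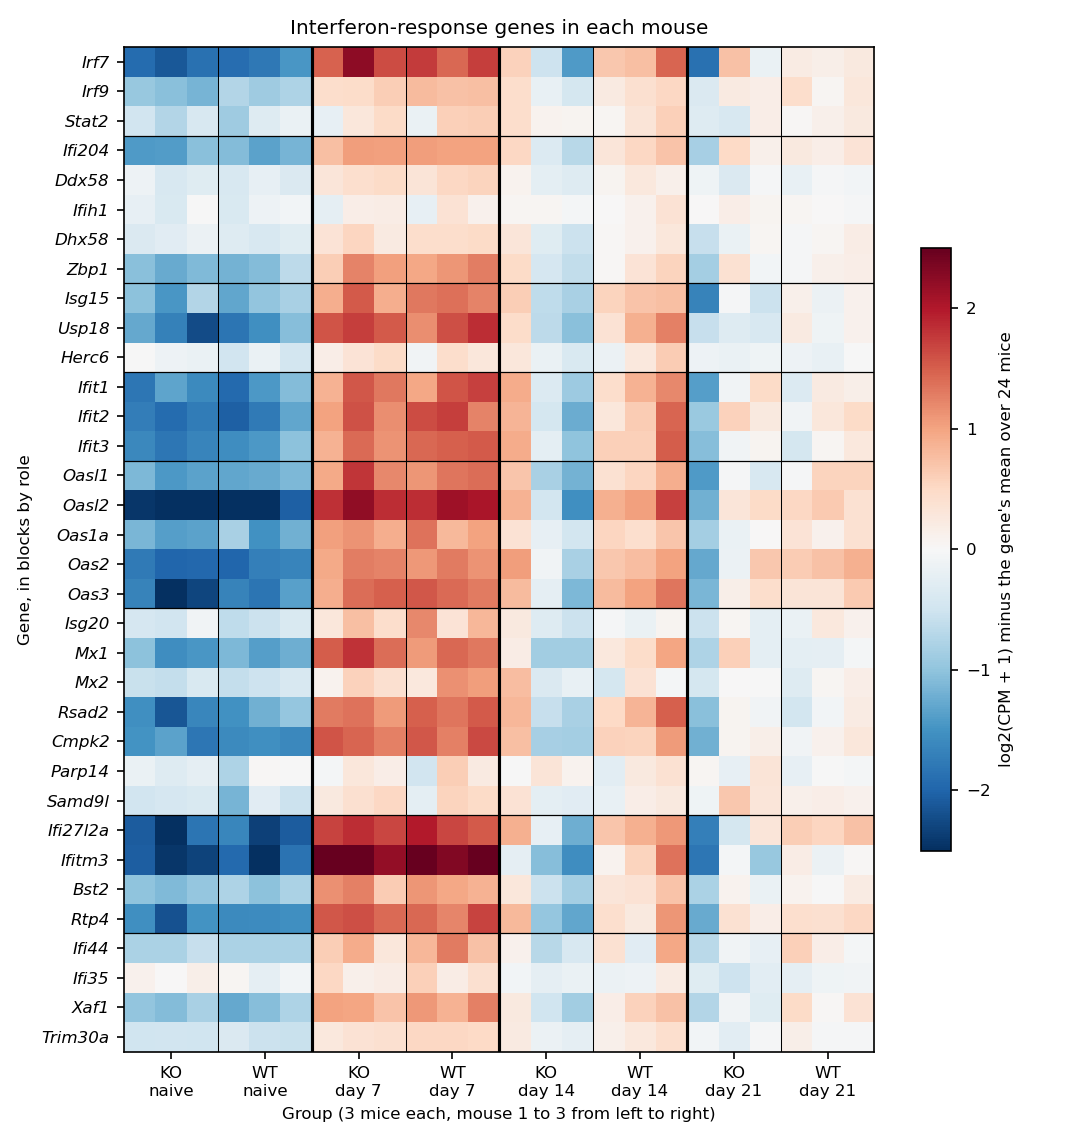
Level of each of the 34 members (down the page, in blocks by role) in each of 24 mice (columns), as log2(CPM + 1) minus the gene's mean over all mice, with colours capped at 2.5. Day 7 columns of both genotypes are high, naive columns are low, and KO day 14 mouse 1 is the highest KO day 14 mouse in 32 of 34 genes.

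Among the transcription factors, Irf7 amplifies interferon production and Irf9 is the DNA-binding partner of Stat2. Irf7 had 72.5, 123 and 80.6 CPM in KO mice at day 7, against 5.91, 5.02 and 6.21 CPM in naive KO mice. It had 87.0, 69.99 and 86.3 CPM in WT mice at day 7, against 6.06, 6.64 and 8.55 CPM in naive WT mice. Every mouse at day 7 was above every naive mouse, with a log2 fold change of 4.01 ± 0.52 in KO mice (SE, adjusted p = 6.7e-06) and 3.51 ± 0.51 in WT mice (adjusted p = 2.4e-05). Irf9 had 55.9, 56.5 and 62.8 CPM in KO mice at day 7, against 20.8, 19.2 and 17.8 CPM in naive KO mice. It had 71.1, 67.9 and 69.1 CPM in WT mice at day 7, against 24.0, 21.4 and 23.4 CPM in naive WT mice. The day 7 and naive mice did not overlap in either genotype, and the change was smaller, with a log2 fold change of 1.60 ± 0.18 in KO mice (SE, adjusted p = 9.7e-07) and 1.60 ± 0.18 in WT mice (adjusted p = 1.2e-06). Stat2, the signal-carrying subunit, was also called higher in both genotypes, with a log2 fold change of 0.75 ± 0.22 in KO mice (SE, adjusted p = 0.013) and 0.84 ± 0.22 in WT mice (adjusted p = 0.0063). Stat2 was lowest in the WT naive and WT day 7 mice numbered 1, at 30.4 and 51.4 CPM. These 2 libraries had the highest shares of counts on the ribosomal RNA gene Rn45s, 6.00% in WT naive mouse 1 and 8.19% in WT day 7 mouse 1. Without both libraries the Stat2 log2 fold change in WT mice was 0.86 ± 0.22 (SE, edgeR adjusted p = 0.0066). In KO mice the Stat2 call was lost without KO naive mouse 2 or without KO day 7 mouse 3 (edgeR adjusted p = 0.064 in each).

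The sensors of nucleic acid split into strongly and weakly changed genes. Ifi204, a DNA-binding protein of the interferon-inducible p200 family, and Zbp1, which binds Z-form nucleic acid, changed most. Ifi204 had 94.0, 115 and 114 CPM in KO mice at day 7, against 20.2, 20.6 and 26.5 CPM in naive KO mice. It had 116, 113 and 112 CPM in WT mice at day 7, against 25.7, 21.4 and 24.3 CPM in naive WT mice. The groups did not overlap, with a log2 fold change of 2.26 ± 0.27 in KO mice (SE, adjusted p = 2.8e-06) and 2.26 ± 0.27 in WT mice (adjusted p = 3e-06). Zbp1 had 31.9, 49.8 and 42.5 CPM in KO mice at day 7, against 9.36, 7.95 and 8.96 CPM in naive KO mice. It had 40.8, 45.2 and 51.0 CPM in WT mice at day 7, against 8.39, 9.16 and 12.6 CPM in naive WT mice. All day 7 mice were above all naive mice, with a log2 fold change of 2.24 ± 0.29 in KO mice (SE, adjusted p = 6.8e-06) and 2.18 ± 0.29 in WT mice (adjusted p = 9.3e-06). The RNA helicases changed less: Ddx58, which encodes RIG-I, had a log2 fold change of 0.68 ± 0.11 in KO mice (SE, adjusted p = 9.8e-05) and 0.79 ± 0.11 in WT mice (adjusted p = 2e-05). For Dhx58, which encodes the regulatory helicase LGP2, the log2 fold changes were 0.65 ± 0.17 in KO mice (SE, edgeR adjusted p = 0.0061) and 0.82 ± 0.17 in WT mice (adjusted p = 0.00095). Ifih1, which encodes the long double-stranded RNA sensor MDA5, was called in neither genotype. Ifih1 had 45.1, 59.1 and 60.4 CPM in KO mice at day 7, against 45.7, 40.1 and 52.5 CPM in naive KO mice. It had 45.4, 68.5 and 57.3 CPM in WT mice at day 7, against 40.2, 47.9 and 50.2 CPM in naive WT mice. Day 7 and naive mice overlapped in both genotypes, with a log2 fold change of 0.25 ± 0.14 in KO mice (SE, adjusted p = 0.18) and 0.31 ± 0.14 in WT mice (adjusted p = 0.094).

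Isg15 encodes a ubiquitin-like tag, Usp18 removes it and restrains the interferon receptor, and Herc6 is the mouse ligase that attaches it. Usp18 had 13.6, 15.3 and 13.2 CPM in KO mice at day 7, against 1.03, 0.531 and 0.0462 CPM in naive KO mice. It had 9.98, 14.0 and 16.7 CPM in WT mice at day 7, against 0.388, 0.705 and 1.35 CPM in naive WT mice. The groups did not overlap, with a log2 fold change of 4.70 ± 0.60 in KO mice (SE, adjusted p = 5.7e-06) and 3.99 ± 0.58 in WT mice (adjusted p = 2.3e-05). Isg15 had 16.6, 25.9 and 16.6 CPM in KO mice at day 7, against 3.61, 2.42 and 4.62 CPM in naive KO mice. It had 22.5, 23.4 and 21.1 CPM in WT mice at day 7, against 2.80, 3.70 and 4.32 CPM in naive WT mice. The lowest day 7 mouse of each genotype was above the highest naive mouse, with a log2 fold change of 2.47 ± 0.41 in KO mice (SE, adjusted p = 9.8e-05) and 2.62 ± 0.41 in WT mice (adjusted p = 5.7e-05). Herc6 changed least of the 3: it had a log2 fold change of 0.46 ± 0.18 in KO mice (SE, adjusted p = 0.059) and 0.63 ± 0.19 in WT mice (adjusted p = 0.012), and the WT call was lost without WT day 7 mouse 2 (edgeR adjusted p = 0.053).

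The IFIT proteins bind viral RNA and block its translation. Ifit2 had 27.1, 40.9 and 30.3 CPM in KO mice at day 7, against 3.20, 2.66 and 3.16 CPM in naive KO mice. It had 42.2, 44.9 and 32.1 CPM in WT mice at day 7, against 2.41, 3.08 and 4.69 CPM in naive WT mice. No day 7 mouse overlapped a naive mouse, with a log2 fold change of 3.44 ± 0.48 in KO mice (SE, adjusted p = 1.6e-05) and 3.52 ± 0.48 in WT mice (adjusted p = 1.3e-05). Ifit3 had 21.4, 32.0 and 25.9 CPM in KO mice at day 7, against 3.01, 2.54 and 2.91 CPM in naive KO mice. It had 32.1, 33.8 and 34.6 CPM in WT mice at day 7, against 3.22, 3.55 and 5.09 CPM in naive WT mice. The WT mice lay close together at day 7, and the log2 fold changes were 3.23 ± 0.43 in KO mice (SE, edgeR adjusted p = 7.8e-06) and 3.07 ± 0.42 in WT mice (adjusted p = 1.3e-05). On the same scale Ifit1 had 3.35 ± 0.51 in KO mice and 3.34 ± 0.51 in WT mice. Reads of Ifit3 and its near-identical neighbour Ifit3b cannot be told apart with certainty in these counts, since the sources used here do not name the counting tool.

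The OAS family holds synthetases that make 2′-5′-linked oligoadenylate, the activator of RNase L (Oas1a, Oas2, Oas3), and the related Oasl1 and Oasl2; the 5 genes lie in 2 groups on chromosome 5. Oas1a, the member with the smallest p at day 7 in WT mice, had 126, 135 and 116 CPM in KO mice at day 7, against 27.3, 22.9 and 23.6 CPM in naive KO mice. It had 159, 109 and 125 CPM in WT mice at day 7, against 34.6, 21.0 and 26.2 CPM in naive WT mice. The day 7 mice stood apart from the naive mice, with a log2 fold change of 2.35 ± 0.23 in KO mice (SE, adjusted p = 1.4e-07) and 2.27 ± 0.22 in WT mice (adjusted p = 2.3e-07). Oasl2 had 68.8, 91.2 and 70.6 CPM in KO mice at day 7, against 2.67, 1.09 and 2.03 CPM in naive KO mice. It had 70.1, 85.0 and 80.4 CPM in WT mice at day 7, against 2.29, 2.44 and 3.78 CPM in naive WT mice. The separation was wide in both genotypes: the model gave 39.7-fold in KO mice and 27.2-fold in WT mice, with a log2 fold change of 5.31 ± 0.55 in KO mice (SE, adjusted p = 4.4e-07) and 4.76 ± 0.54 in WT mice (adjusted p = 1.3e-06). Oas2 had 5.16 ± 0.61 and Oas3 3.74 ± 0.44 on the log2 scale in KO mice, and the values in WT mice were 4.58 ± 0.59 and 3.23 ± 0.43. Oasl1 had 3.21 ± 0.48 in KO mice and 3.03 ± 0.48 in WT mice. Oas1a shares sequence with neighbouring Oas1 genes, so its counts are uncertain in the same way.

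Of the 7 antiviral enzymes and GTPases, 6 were called higher at day 7 in each genotype. Cmpk2 is a mitochondrial nucleotide kinase and Mx1 a dynamin-like GTPase that traps viral nucleoprotein. Cmpk2 had 21.0, 19.2 and 16.6 CPM in KO mice at day 7, against 1.63, 1.93 and 1.11 CPM in naive KO mice. It had 20.8, 16.6 and 22.0 CPM in WT mice at day 7, against 1.44, 1.56 and 1.43 CPM in naive WT mice. The groups were far apart, with a log2 fold change of 3.60 ± 0.44 in KO mice (SE, adjusted p = 3.4e-06) and 3.75 ± 0.45 in WT mice (adjusted p = 2.7e-06). Mx1 had 8.66, 10.8 and 7.92 CPM in KO mice at day 7, against 0.667, 0.145 and 0.231 CPM in naive KO mice. It had 6.11, 8.09 and 7.44 CPM in WT mice at day 7, against 0.544, 0.294 and 0.455 CPM in naive WT mice. Mx1 was low in all naive mice and higher in all day 7 mice, with a log2 fold change of 4.69 ± 0.57 in KO mice (SE, adjusted p = 3.1e-06) and 4.07 ± 0.56 in WT mice (adjusted p = 1.5e-05). Rsad2, which encodes viperin, had 3.38 ± 0.42 in KO mice and 2.90 ± 0.41 in WT mice. The nuclease gene Isg20 had 1.07 ± 0.30 in KO mice and 1.74 ± 0.31 in WT mice. GENCODE M21 types Mx2 as a polymorphic pseudogene, and only RNA was measured here. Mx2 stayed low, at no more than 2.31 CPM in any mouse at day 7, with a log2 fold change of 3.85 ± 1.10 in KO mice (SE, adjusted p = 0.0096) and 4.50 ± 1.11 in WT mice (adjusted p = 0.0033). Without KO naive mouse 3 the KO value of Mx2 was 5.96. Samd9l, a translation inhibitor, had 0.84 ± 0.23 in KO mice and 0.95 ± 0.23 in WT mice.

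Parp14, a mono-ADP-ribosyltransferase, was called in neither genotype. Parp14 had 66.0, 83.5 and 77.0 CPM in KO mice at day 7, against 60.6, 55.0 and 58.2 CPM in naive KO mice. It had 49.0, 106 and 80.4 CPM in WT mice at day 7, against 39.97, 70.4 and 68.2 CPM in naive WT mice. The WT mice overlapped, and WT naive mouse 1 and WT day 7 mouse 1, the libraries with the most Rn45s, were the lowest of their groups. The log2 fold changes of Parp14 were 0.38 ± 0.23 in KO mice (SE, edgeR adjusted p = 0.21) and 0.40 ± 0.23 in WT mice (adjusted p = 0.19), and 0.42 ± 0.19 in WT mice without both libraries (adjusted p = 0.11).

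The membrane proteins included the largest fitted change apart from Ifi44. Ifitm3 blocks fusion of virus with the endosome. Ifitm3 had 68.7, 89.8 and 37.4 CPM in KO mice at day 7, against 1.01, 0.556 and 0.669 CPM in naive KO mice. It had 59.0, 40.6 and 57.7 CPM in WT mice at day 7, against 1.17, 0.441 and 1.33 CPM in naive WT mice. The naive mice had at most 1.33 CPM and the lowest day 7 mouse was KO mouse 3, with a log2 fold change of 6.44 ± 0.60 in KO mice (SE, adjusted p = 9.5e-08) and 5.72 ± 0.58 in WT mice (adjusted p = 3.3e-07). Ifi27l2a is a small membrane protein induced by interferon. Ifi27l2a had 90.1, 99.3 and 87.9 CPM in KO mice at day 7, against 5.63, 3.65 and 6.88 CPM in naive KO mice. It had 110.3, 88.5 and 80.2 CPM in WT mice at day 7, against 8.04, 4.58 and 5.64 CPM in naive WT mice. Both genotypes separated fully, with a log2 fold change of 4.10 ± 0.48 in KO mice (SE, adjusted p = 1.6e-06) and 3.94 ± 0.47 in WT mice (adjusted p = 2.7e-06). Bst2, or tetherin, which holds budding virus at the cell surface, had 2.11 ± 0.24 in KO mice and 1.88 ± 0.24 in WT mice. Rtp4, a chaperone of membrane receptors, had 3.68 ± 0.51 in KO mice and 3.42 ± 0.51 in WT mice.

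Of the remaining members, Trim30a, a regulator of Toll-like receptor signalling, moved little but evenly. Trim30a had 93.1, 99.97 and 103 CPM in KO mice at day 7, against 54.4, 55.1 and 55.0 CPM in naive KO mice. It had 111, 111 and 110.4 CPM in WT mice at day 7, against 60.6, 53.0 and 52.7 CPM in naive WT mice. Its groups did not overlap, with a log2 fold change of 0.85 ± 0.11 in KO mice (SE, adjusted p = 4.8e-06) and 1.00 ± 0.11 in WT mice (adjusted p = 6.7e-07). Xaf1 had 13.1, 12.8 and 10.4 CPM in KO mice at day 7, against 2.51, 2.27 and 3.00 CPM in naive KO mice. It had 13.8, 11.7 and 15.8 CPM in WT mice at day 7, against 1.86, 2.35 and 3.09 CPM in naive WT mice. Xaf1, a regulator of apoptosis, also separated, with a log2 fold change of 2.22 ± 0.29 in KO mice (SE, adjusted p = 6.6e-06) and 2.48 ± 0.29 in WT mice (adjusted p = 2.1e-06). Ifi44, a cytoplasmic protein of uncertain function, had 63, 86 and 40 counts in KO mice at day 7 against 0, 0 and 7 counts in naive KO mice. It had 64, 147 and 67 counts in WT mice at day 7 against 0 counts in each naive WT mouse. Against 3 counts over the WT naive group, WT mice at day 7 were at least 88.0-fold higher, a floor that covers counting error only. Ifi35 had 42.0, 31.8 and 33.2 CPM in KO mice at day 7, against 31.4, 29.2 and 32.1 CPM in naive KO mice. It had 44.6, 33.3 and 38.6 CPM in WT mice at day 7, against 30.03, 24.6 and 27.7 CPM in naive WT mice. Ifi35, a partner of the transcription factor Batf, overlapped in KO mice and not in WT mice, with a log2 fold change of 0.21 ± 0.13 in KO mice (SE, adjusted p = 0.22) and 0.50 ± 0.13 in WT mice (adjusted p = 0.0047).

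**Figure D2:**
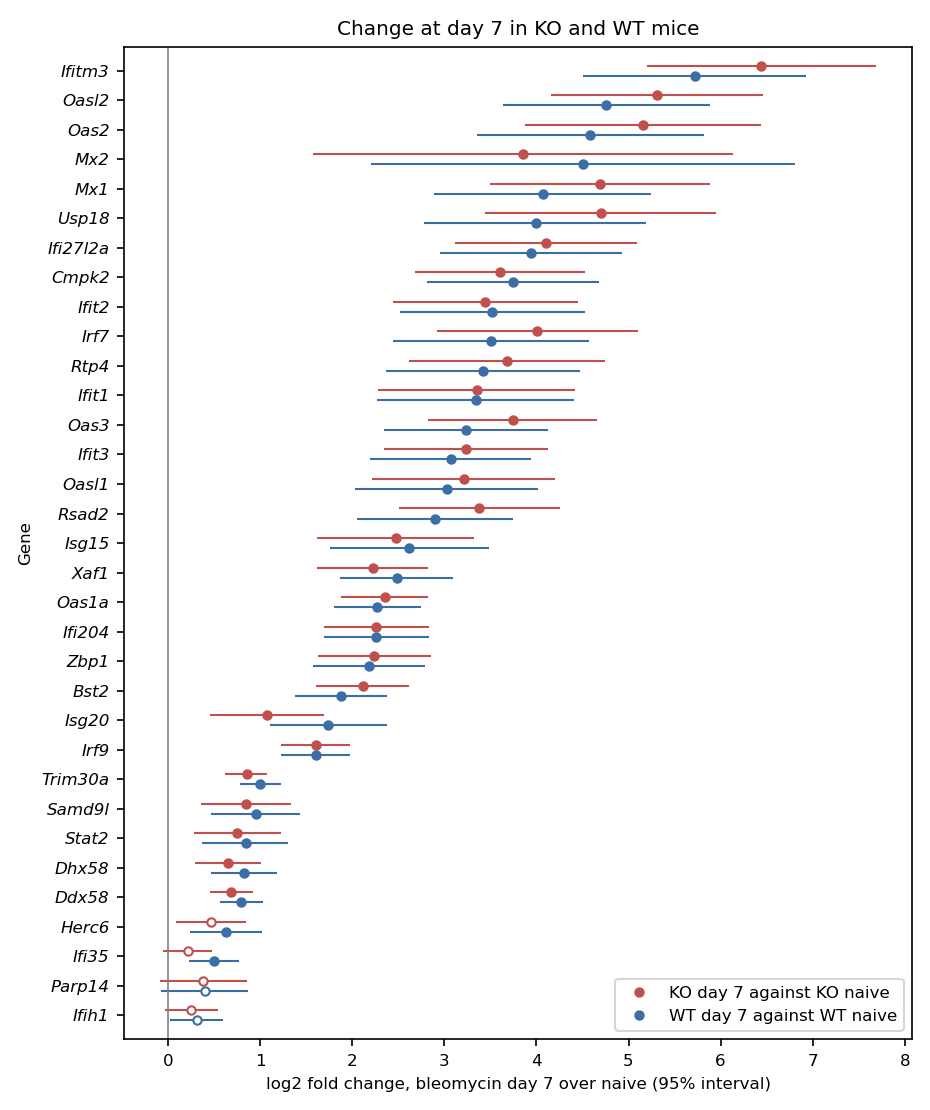
Model log2 fold change at day 7 over naive with its 95% interval for 33 members in KO (red, upper point) and WT (blue, lower point) mice, with filled points for called changes. Ifi44 is left out because naive WT mice had no counts. The order runs from Ifitm3 at the top to Ifih1 at the bottom, and the intervals of the genotypes overlap for each gene.

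Levels can be compared between genes once divided by exon length (CPM per kilobase of merged GENCODE M21 exons). At day 7 Ifi27l2a was highest, at 199.7 ± 13.1 in KO mice and 201 ± 33.6 in WT mice (mean ± SD, n = 3). Bst2 followed at 112 ± 24.6 in KO mice and 108 ± 8.65 in WT mice, and Ifitm3 was next at 96.3 ± 38.9 and 77.3 ± 15.2 CPM per kilobase in KO and WT mice. In KO mice the spreads of Bst2 and Ifitm3 overlapped. In naive mice Bst2 led, at 26.1 ± 1.31 in KO mice and 29.4 ± 2.85 in WT mice, and Ifi35 followed at 17.9 ± 0.883 in KO mice and 15.9 ± 1.58 in WT mice, where its spread overlapped that of Oas1a. Mx2 and Ifi44 were the lowest members in both states.

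Fewer members were called above naive at days 14 and 21 than at day 7. In KO mice 24 members were called higher at day 14 (12.0% of tested genes were), and 21 were at day 21 (15.0%). In WT mice 29 were called higher at day 14 (18.7%) and 26 at day 21 (18.8%). Leaving out KO day 14 mouse 1 lowered the KO day 14 count to 10, and fitting KO naive and KO day 21 mice alone lowered the KO day 21 count to 12. The median log2 fold change of the members was 1.36 in KO mice and 2.13 in WT mice at day 14, and 1.23 in KO mice and 1.48 in WT mice at day 21. The WT medians were unaltered with Ifi44 at its bound. Ifi35 alone was called below naive, in KO mice at day 21 (log2 fold change -0.46 ± 0.13, edgeR adjusted p = 0.014), where 6.89% of tested genes were called lower. It had 23.4, 19.97 and 24.1 CPM there against 31.4, 29.2 and 32.1 CPM in naive KO mice, without overlap. That call was lost without KO naive mouse 3 (adjusted p = 0.054) or KO day 21 mouse 2 (0.085).

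Set against day 7, 23 members were called lower at day 14 in KO mice (8.22% of tested genes were called lower) and 24 at day 21 (7.73%). In WT mice 2 were called lower at day 14, Isg20 and Ifitm3 (3.20%), and 18 at day 21 (6.15%). From day 14 to day 21 no member was called lower in KO mice (0%) or in WT mice (0%) by edgeR or by DESeq2; at an unadjusted p under 0.05 there were 0 in KO mice (5.73% of tested genes) and 6 in WT mice (3.86%). These counts leaned on single libraries. Without KO day 14 mouse 2 the KO day 14 count was 10, without KO day 14 mouse 3 it was 9, and without KO day 7 mouse 2 it was 15. The WT day 21 count was 11 without WT day 7 mouse 1, 9 without WT day 7 mouse 3, 6 without WT day 21 mouse 1 or WT day 21 mouse 2, and 10 without WT day 21 mouse 3. The WT day 14 count was 0 without WT day 14 mouse 1 or WT day 14 mouse 2, and 1 without WT day 7 mouse 1 or WT day 7 mouse 3. Fits of the compared groups alone called 11 members in KO mice at day 14, 10 in KO mice at day 21 and 4 in WT mice at day 14.

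Ifitm3 fell furthest. Ifitm3 had 6.17, 2.97 and 1.85 CPM in KO mice at day 14 and 1.38, 7.05 and 3.34 CPM at day 21. In WT mice it had 7.84, 11.3 and 20.5 CPM at day 14 and 8.46, 6.55 and 7.50 CPM at day 21. Every mouse at these days was below every day 7 mouse, and the log2 fold change from day 7 to day 21 was -4.07 ± 0.52 in KO mice (SE, edgeR adjusted p = 3.1e-05) and -2.80 ± 0.49 in WT mice (adjusted p = 0.0008). Oas2 kept the largest share of its rise in WT mice at day 21, among members with a log2 fold change of at least 1 at day 7. Oas2 had 8.72, 3.44 and 1.71 CPM in KO mice at day 14 and 0.947, 3.30 and 6.52 CPM at day 21. In WT mice it had 6.59, 7.14 and 8.54 CPM at day 14 and 6.38, 6.86 and 7.77 CPM at day 21. The WT mice at day 21 lay between 6.38 and 7.77 CPM, against 9.08 to 10.7 CPM at day 7, and the log2 fold change was -0.47 ± 0.48 (adjusted p = 0.58). In KO mice Oas2 spread more widely at both days, with -1.42 ± 0.49 from day 7 to day 21 (adjusted p = 0.056).

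The part of the day 7 rise above naive that was left was taken per gene from group means. It covers members called at day 7 with a log2 fold change of at least 1 (25 in KO mice, 26 in WT mice). These members were picked by their day 7 rise, which is also the divisor, so the shares lean low. They describe the course and are not separate support for a decline, and the member sets of the genotypes differ. At day 14 the median share left was 24.9% in KO mice, with a range of 4.52 to 70.9%, and 57.3% in WT mice, with a range of 23.8 to 75.5%. At day 21 it was 23.0% in KO mice and 33.3% in WT mice. In WT mice Oas2 kept 71.0% at day 21, Irf9 56.4% and Ifitm3 12.7%. In KO mice Irf9 kept 57.3%, Ifi204 40.5% and Ifitm3 4.92%. The difference between the genotypes in the change from day 7 to day 14, a comparison added after these counts were seen, was called for no member and for 0% of tested genes (edgeR and DESeq2). Its median over the members was -0.67 on the log2 scale, 30 of 34 were negative, 4 had an unadjusted p under 0.05 (6.94% of tested genes did), and the lowest adjusted p was 0.6.

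**Figure D3:**
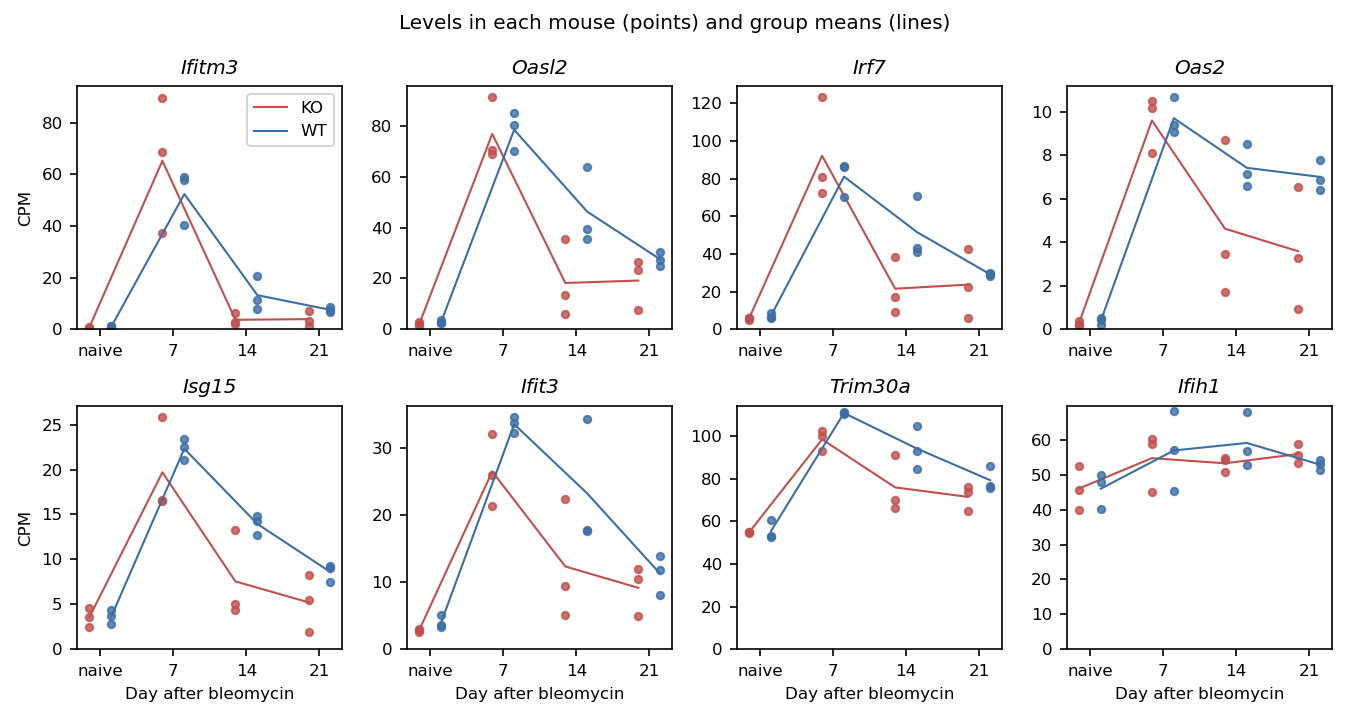
CPM of 8 members in each mouse (points) with group means (lines) for KO (red, left) and WT (blue, right) mice, naive and at days 7, 14 and 21, on axes from 0. Ifitm3 is highest at day 7 in both genotypes, Oas2 in WT mice stays well above naive to day 21, and Ifih1 varies little.

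Whether loss of Siglec-F altered these genes was asked at each time. No member was called between KO and WT mice in the naive state (0.546% of tested genes were called in either direction), at day 7 (0.00792%), at day 14 (0.135%) or at day 21 (0.0950%), by edgeR or by DESeq2. At an unadjusted p under 0.05 there were 0 members in the naive state, against 8.33% of tested genes, 0 at day 7 (4.59%), 19 at day 14 (10.0%) and 4 at day 21 (9.78%). In edgeR the lowest adjusted p was 0.14 at day 14, 0.34 at day 21, 0.65 in naive mice and 1 at day 7. The difference between the genotypes in the response to bleomycin was likewise called for no member at day 7 (0.00792%), day 14 (0.332%) or day 21 (0.332%), with 0, 4 and 3 members at an unadjusted p under 0.05, against 6.14%, 10.3% and 10.8% of tested genes. For the change from day 7 to day 21 it was called for none (0%), with 0 members at an unadjusted p under 0.05 (4.87% of tested genes). These comparisons share samples, so their counts are not independent. At day 7 the 95% interval of KO over WT for Irf7 ran from -0.76 to 1.13 on the log2 scale, for Isg15 from -0.97 to 0.61, and for Irf9 from -0.61 to 0.11, so differences within these bounds were not resolved.

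Day 14 held the largest gap. There 32 of 34 members had a negative log2 fold change of KO over WT, with a median of -0.81 against 0 for all tested genes. Ifitm3 had 6.17, 2.97 and 1.85 CPM in KO mice and 7.84, 11.3 and 20.5 CPM in WT mice. All 3 KO mice were below all WT mice, with a log2 fold change of -1.88 ± 0.49 (95% interval -2.90 to -0.85, edgeR adjusted p = 0.14). Bst2 had 59.6, 33.6 and 26.6 CPM in KO mice and 60.3, 62.8 and 81.4 CPM in WT mice. KO mouse 1 lay just under the WT mice, and the log2 fold change was -0.77 ± 0.24 (adjusted p = 0.21). Isg15 had 13.3, 5.01 and 4.31 CPM in KO mice and 12.7, 14.3 and 14.8 CPM in WT mice, and here KO mouse 1 fell among the WT mice, with -0.90 ± 0.39 (adjusted p = 0.43). In 7 members the KO mice were all below the WT mice, and in 27 the groups overlapped; of all tested genes, 8.41% had all KO mice below the WT mice and 7.05% had them all above.

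The KO mice at day 14 were uneven. KO mouse 1 was the highest of the 3 in 32 of 34 members, and its median log2 ratio to the WT mean was -0.04. KO mouse 2 was below all 3 WT mice in 30 members, with a median of -1.15, and KO mouse 3 in 31, with a median of -1.68. The share of all tested genes below all WT mice was not counted for single mice. KO day 14 mouse 1 stood out by the members' own levels, so the calls without it are not separate support for a gap. Without KO day 14 mouse 1, 19 members were called lower in KO than in WT mice, with log2 fold changes of -0.46 to -2.46, and 242 of all tested genes (1.92%) were called. Ifitm3 then had -2.46 ± 0.55 (SE, edgeR adjusted p = 0.027), Bst2 -1.18 ± 0.21 (0.011) and Rsad2 -1.84 ± 0.35 (0.013). The response difference at day 14 was then called for 2 members, Xaf1 at -1.48 ± 0.36 and Cmpk2 at -1.95 ± 0.47 (adjusted p = 0.04 for each), and for 216 of all tested genes (1.71%). Without KO mouse 2 or KO mouse 3 no member was called. The WT mice were graded too: WT mouse 3 was highest in 32 members and WT mouse 1 lowest in 29.

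**Figure D4:**
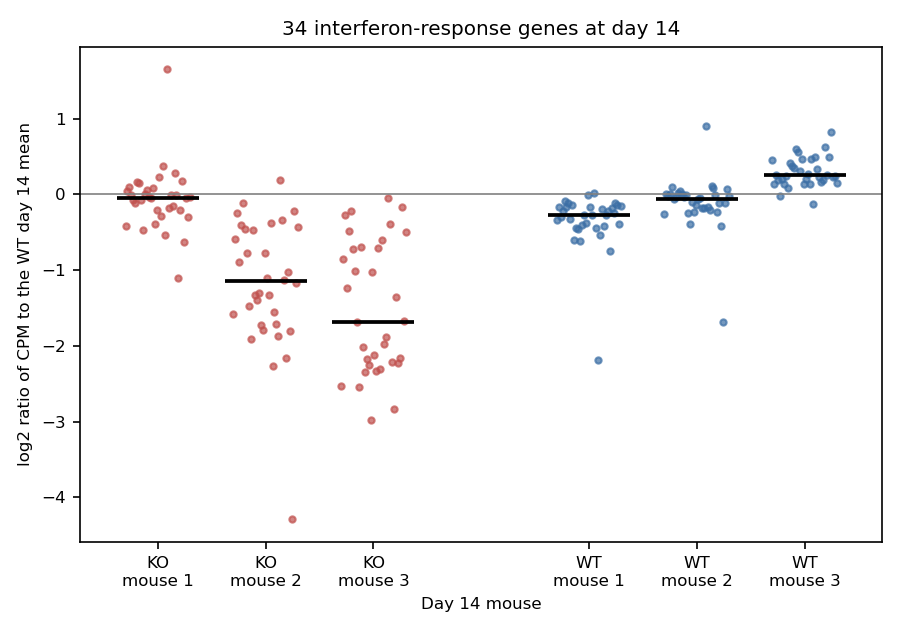
log2 ratio of CPM to the WT day 14 mean for the 34 members (points) in each day 14 mouse, KO (red) left of WT (blue), with the median as a black bar. The medians of KO mice 1, 2 and 3 are -0.04, -1.15 and -1.68.

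At day 14 the summed resident markers ran opposite to the member medians within each genotype. The summed recruited markers ran with the member medians except between KO mice 1 and 2. Of the recruited markers named above, C1qa had 634 and 378 CPM in KO mice 1 and 2, and Ccr2 67.2 and 58.4 CPM. Both were lower in KO mouse 2, so other genes of the list were higher there. The resident markers summed to 15346, 21469 and 27034 CPM in KO day 14 mice 1, 2 and 3, against 17394, 13313 and 11223 CPM in WT day 14 mice. The recruited markers summed to 13181, 13355 and 8870 CPM in KO mice, against 10744, 15678 and 18091 CPM in WT mice. The KO mouse with the most resident and least recruited marker RNA was lowest in the members, and the WT mouse with the least resident and most recruited marker RNA was highest. T and NK cell markers (11 of 12 in the table) summed to 21.3, 9.65 and 12.1 CPM in KO mice and 20.8, 15.7 and 36.4 CPM in WT mice. Conventional dendritic cell markers summed to 14.5, 5.73 and 4.37 CPM in KO mice and 12.3, 13.8 and 20.4 CPM in WT mice. Plasmacytoid dendritic cell markers summed to 84.8, 77.1 and 78.7 CPM in KO mice and 74.1, 88.4 and 86.9 CPM in WT mice, and the groups overlapped. Their defining marker Siglech had 4, 0 and 0 counts in KO mice and 0, 3 and 22 counts in WT mice. Epithelial markers summed to 138, 233 and 222 CPM in KO mice and 145, 93.2 and 99.0 CPM in WT mice. Neutrophil markers summed to 196, 372 and 302 CPM in KO mice and 300.2, 238 and 222 CPM in WT mice. Within each genotype at day 14, the mouse highest in the members was also highest in the T and NK cell and conventional dendritic cell sums and lowest in the neutrophil sum. The part of these markers in the day 14 gap was not tested.

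Day 21 showed the same unevenness in another mouse, again without a share of all tested genes for single mice. KO mouse 1 was lowest of the 3 in 28 of 34 members and below all WT mice in 30, with a median log2 ratio to the WT mean of -1.13, while KO mice 2 and 3 had -0.09 and -0.10. Irf7, for example, had 6.17, 42.4 and 22.6 CPM in KO mice and 29.4, 28.2 and 30.02 CPM in WT mice. KO mouse 1 was near the naive KO level, KO mouse 2 was above the WT mice and KO mouse 3 below them. KO mouse 1 also had the most resident marker RNA of the group, 24971 CPM against 21322 and 14777 CPM in KO mice 2 and 3, and the least recruited marker RNA, 6322 against 19610 and 15217 CPM. KO mouse 2 had a higher resident and a higher recruited marker sum than KO mouse 3, and a slightly higher member median. Much of the resident sum was Chil3, with 14357 and 7953 CPM in KO day 21 mice 2 and 3. Marco, with 651.8 and 286.3 CPM, and Mrc1, with 1507 and 1449 CPM, were also higher in mouse 2. Pparg, with 116.8 and 144.3 CPM, and Itgax, with 1731 and 1843 CPM, were lower there. WT day 21 mice 1, 2 and 3 had 16725, 17432 and 19708 CPM of resident and 12215, 10646 and 10522 CPM of recruited markers. Their member medians rose slightly from mouse 1 to mouse 3, with the resident sum and against the recruited sum. For the sums, this order was the reverse of that at day 14. Much of the resident sum was again Chil3, with 10017, 10559 and 12859 CPM in WT day 21 mice 1, 2 and 3. Pparg fell over these mice, with 124.6, 118.8 and 102.1 CPM, and so did Itgax, with 1623, 1430 and 1323 CPM. Marco, Mrc1 and Siglecf followed neither order. The part of these markers in the day 21 levels was not tested. Across the 34 members 30 were negative at day 21, with a median of -0.30. Oas1a was 1 of the 4 members with an unadjusted p under 0.05, with 33.7, 54.9 and 61.9 CPM in KO mice and 78.0, 66.6 and 80.7 CPM in WT mice, no overlap, and a log2 fold change of -0.58 ± 0.22 (edgeR adjusted p = 0.35).

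**Figure D5:**
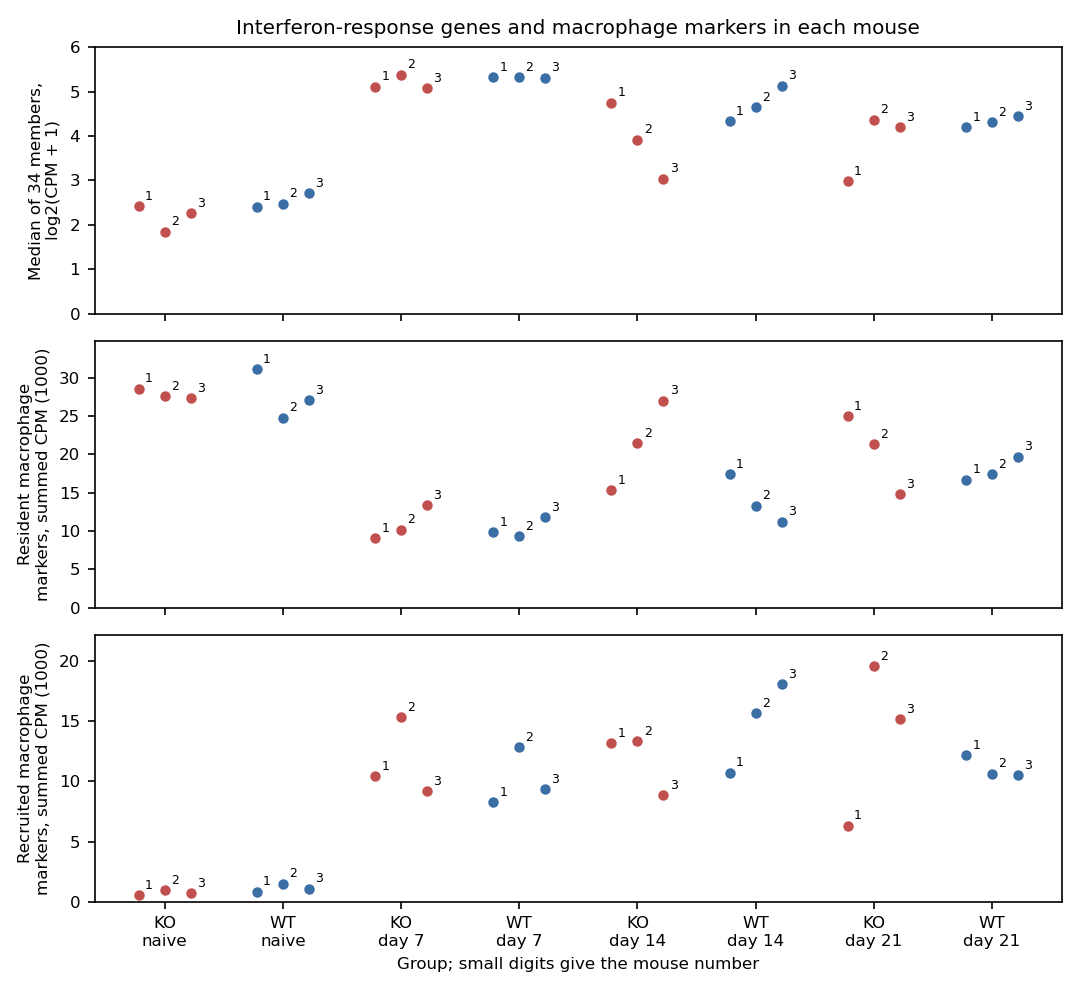
For each mouse, the median log2(CPM + 1) of the 34 members (top), and the summed CPM of 14 resident (middle) and 16 recruited (bottom) macrophage markers, KO (red) left of WT (blue) at each time, with mouse numbers beside the points. KO day 14 mouse 3 and KO day 21 mouse 1 have low member medians (3.04 and 2.99), high resident sums and low recruited sums within their groups.

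Upstream of these genes, the interferons themselves were close to undetected. Of 21 interferon genes listed, none passed the filter on low counts and 17 had 0 counts in all 24 mice. A count of 0 allows up to 0.0632 to 0.121 CPM, as 3 counts of a library total. Ifnb1 had 4 counts, all in KO day 14 mouse 3, Ifng had 9 counts over 3 mice, Ifnz had 4 over 2 mice and Ifnk had 1. Ifnz is a limitin-family interferon and Ifnk an interferon of keratinocytes. RNA of cells outside the airspaces was not measured.

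Of 17 receptor and signalling genes, 10 were called higher and 1 lower in KO mice at day 7 (19.7% and 14.4% of all tested genes). In WT mice 11 were called higher and none lower (20.2% and 15.3%). The median log2 fold change of the list was 0.41 in each genotype. Ifnar1 averaged 87.0 ± 20.5 CPM in KO mice at day 7 against 37.5 ± 1.64 CPM in naive KO mice, and 75.5 ± 8.77 CPM in WT mice at day 7 against 34.6 ± 4.67 CPM in naive WT mice (SD, n = 3 each). Its log2 fold change was 1.21 ± 0.15 in KO mice and 1.12 ± 0.15 in WT mice. The transcription factors Irf5, 1.15 ± 0.17 in KO and 1.24 ± 0.17 in WT mice, and Irf4, 1.99 ± 0.28 in KO and 1.91 ± 0.28 in WT mice, rose as well. Jak2, a kinase of the interferon-gamma receptor, had 0.49 ± 0.13 in KO and 0.86 ± 0.14 in WT mice. The kinase Tyk2 had -0.23 ± 0.08 in KO mice, a fall (edgeR adjusted p = 0.025), and -0.08 ± 0.08 in WT mice (adjusted p = 0.44); the difference between the genotypes was not called for any gene of the list.

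Of 16 other nucleic acid sensors and adaptors tested, 5 were called higher and 2 lower in KO mice at day 7, and 6 higher and 1 lower in WT mice. Of all tested genes, 19.7% were called higher and 14.4% lower in KO mice at day 7, and 20.2% higher and 15.3% lower in WT mice. Tlr9, the endosomal receptor for unmethylated DNA, averaged 23.7 ± 4.64 CPM in KO mice at day 7 against 0.603 ± 0.147 CPM in naive KO mice, and 26.2 ± 2.32 CPM in WT mice at day 7 against 0.579 ± 0.124 CPM in naive WT mice (SD, n = 3 each). Its log2 fold change was 5.29 ± 0.42 in KO and 5.45 ± 0.43 in WT mice, above that of all members but Ifitm3 and Ifi44 in WT mice. Ikbke, a kinase that activates Irf3 and Irf7, had 3.78 ± 0.42 in KO and 3.49 ± 0.41 in WT mice, and 3.53 ± 0.41 and 3.48 ± 0.41 in KO and WT mice at day 21. Tlr3, the receptor for double-stranded RNA, rose by 0.68 ± 0.17 in KO and 1.07 ± 0.17 in WT mice. Mavs, the adaptor of RIG-I and MDA5, fell: its log2 fold change was -0.52 ± 0.13 in KO mice (edgeR adjusted p = 0.0034) and -0.91 ± 0.13 in WT mice (adjusted p = 1.6e-05).

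Among 13 tested negative regulators 7 were called higher and 1 lower in KO mice at day 7 (19.7% and 14.4% of all tested genes). In WT mice 6 were called higher and none lower (20.2% and 15.3%). Socs3, which blocks Jak kinases, averaged 132 ± 34.6 CPM in KO mice at day 7 against 6.66 ± 1.54 CPM in naive KO mice, and 117 ± 24.7 CPM in WT mice at day 7 against 13.0 ± 5.02 CPM in naive WT mice. Adar, which edits double-stranded RNA, had a log2 fold change of 0.69 ± 0.14 in KO and 0.72 ± 0.14 in WT mice, and the DNase Trex1 had 0.36 ± 0.11 and 0.58 ± 0.11 in KO and WT mice. Nlrc3 had 3.48 ± 0.64 in KO and 2.63 ± 0.62 in WT mice. All of these passed the edgeR test in both genotypes.

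Genes that respond more to interferon-gamma rose with the members. Of 22 tested, 18 were called higher and 1 lower in KO mice at day 7 (19.7% and 14.4% of all tested genes), with a median log2 fold change of 1.51. In WT mice 19 were called higher and none lower (20.2% and 15.3%), with a median of 1.78. The immunity-related GTPases Irgm1, 1.58 ± 0.17 in KO and 1.66 ± 0.18 in WT mice, and Igtp, 0.80 ± 0.14 in KO and 1.13 ± 0.14 in WT mice, were among them. Gbp3, a guanylate-binding protein, had 2.46 ± 0.33 in KO and 2.65 ± 0.34 in WT mice, and the Fc receptor gene Fcgr1 had 1.44 ± 0.16 and 1.43 ± 0.16 in KO and WT mice. Of 19 tested class I presentation genes, 15 were called higher in KO mice at day 7 (19.7% of all tested genes were), with a median of 0.52. In WT mice 14 were called higher (20.2%), with a median of 0.56. Tap1, a peptide transporter, had 1.40 ± 0.18 in KO and 1.60 ± 0.18 in WT mice. Nlrc5, the class I transactivator, had 2.70 ± 0.39 and 3.13 ± 0.40 in KO and WT mice, and the class I genes H2-Q4 and H2-Q7 had 1.10 ± 0.18 and 2.63 ± 0.42 in KO mice and 1.29 ± 0.18 and 3.08 ± 0.42 in WT mice. The H2-Q genes are near-identical, so their split is uncertain. Socs1 sits in more than 1 of these lists.

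A wider list of interferon-induced genes, besides the 34, was also chosen with earlier results of these data known. It is therefore not separate support. Of its 69 tested genes, 44 were called higher and 1 lower in KO mice at day 7 (19.7% and 14.4% of all tested genes). In WT mice 43 were called higher and 2 lower (20.2% and 15.3%). At day 14 the counts were 25 higher and 1 lower in KO mice, where 12.0% of all tested genes were called higher and 4.84% lower. In WT mice they were 36 higher and 3 lower (18.7% and 13.4% of all tested genes). At day 21 they were 28 higher and 1 lower in KO mice (15.0% and 6.89% of all tested genes), and 26 higher and 5 lower in WT mice (18.8% and 13.7%). Cxcl10, a chemokine that attracts T cells, averaged 13.5 ± 1.74 CPM in KO mice at day 7 against 1.87 ± 0.422 CPM in naive KO mice, and 14.3 ± 2.97 CPM in WT mice at day 7 against 2.32 ± 0.838 CPM in naive WT mice. At day 21 it had a log2 fold change of 0.34 ± 0.29 in KO mice (edgeR adjusted p = 0.44) and 0.50 ± 0.28 in WT mice (adjusted p = 0.19). Ms4a6b, a membrane protein of the Ms4a family, had 6.79 ± 0.66 in KO and 6.95 ± 0.69 in WT mice at day 7, and Ifit1bl1, a relative of Ifit1, had 2.84 ± 0.35 and 3.08 ± 0.35 in KO and WT mice. Tmem140, a transmembrane protein, went the other way, with -0.54 ± 0.11 in KO and -1.13 ± 0.11 in WT mice. Oas1g and Ifit3b, the near copies of Oas1a and Ifit3, rose with them in both genotypes.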

How the data were processed

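The deposited table holds the authors' expected counts, estimated reads per gene with fractions in 3.11 to 3.85% of entries, for 1 column per mouse. Per the labels, RNA was purified with RNeasy Micro Plus, Universal Plus mRNA-Seq libraries were made from 200 ng, and 150 bp paired ends were read; each mouse has 2 listed runs. Per the submitters' processing notes, the mm10 build, bcl2fastq, DESeq2 1.42.0 and limma 3.58.1 were used. The sources used here do not give the aligner, counter or strand setting. A further 24 columns of other samples were not used.

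Expected counts were rounded to whole numbers. Genes passed edgeR 4.0.16 filterByExpr (minimum count 10, total 15), which left 12634. Libraries were scaled by TMM, and a single quasi-likelihood model with 8 group means was run under R 4.3.3 (16 residual degrees of freedom, biological coefficient of variation 0.21). Calls are at 0.05 after Benjamini-Hochberg adjustment over every tested gene. The labels number the mice but do not say how they were housed or processed. The steps were tested on simulated data. Values of 1 further listed gene are not reported here.

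The members and lists were chosen with earlier results of these data known. All members are described by role; the rule gives mouse values for the 2 with the smallest p at day 7 in WT mice per role, those not called there, and the 3 largest and 3 smallest log2 fold changes. From each list up to 4 genes with the smallest p there are named; Tyk2, Oas1g and Ifit3b were named beyond this rule, after their values were seen. Alternatives were DESeq2 1.42.0, median-ratio scaling, no filter, a fit of only the compared groups, a block on mouse number, and each library left out. Positions and exon lengths came from GENCODE M21, promoters from RefSeq GRCm38.p6.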

Additional observations from a re-analysis of the deposited data

Results flagged for a closer look

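Tmem140, a transmembrane protein gene of the wider interferon-induced list, differed between the genotypes in its response to bleomycin by an edgeR test of that difference. It had 28.9, 30.8 and 35.9 CPM in KO mice at day 14 and 22.9, 22.4 and 24.0 CPM in naive KO mice, against 29.9, 25.2 and 26.7 CPM in WT mice at day 14 and 41.1, 40.1 and 42.0 CPM in naive WT mice. The KO minus WT difference in response was 1.06 ± 0.15 on the log2 scale at day 14 (SE, adjusted p = 0.0042) and 0.84 ± 0.15 at day 21 (adjusted p = 0.02). The naive mice already differed, with KO over WT at -0.83 ± 0.11 (adjusted p = 0.00057). The day 21 call was lost without any one of 5 libraries: KO naive mouse 1, KO naive mouse 2, WT naive mouse 3, WT day 21 mouse 2 and WT day 21 mouse 3, with adjusted p from 0.051 to 0.088.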

How the results depend on the processing

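The counts of members higher than naive at day 7 kept to 31 to 34 in WT and 29 to 30 in KO mice over all single libraries left out. Leaving out 1 library gave 10 to 25 members higher in KO mice at day 14 (24 with all), 0 to 3 lower in WT mice from day 7 to day 14 (2), 6 to 13 lower in WT mice from day 7 to day 21 (18), 9 to 28 lower in KO mice from day 7 to day 14 (23), 0 to 19 different between KO and WT mice at day 14 (0), and 0 to 2 with a response difference at day 14 (0). With the compared groups alone the counts were 12 in place of 21 higher in KO mice at day 21, 4 in place of 2 lower in WT mice at day 14, 11 in place of 23 lower in KO mice at day 14, and 10 in place of 24 lower in KO mice at day 21. DESeq2 called 4 lower in WT mice at day 14, and leaving out both libraries with the highest Rn45s shares, an alternative chosen after seeing the data, left 1. With GAAA blocks 3 bases apart in place of 2, 5 promoters of members matched, and 8 did with blocks 1 base apart. DESeq2 called more genes overall between KO and WT mice, 163, 15, 143 and 132 at the naive state and days 7, 14 and 21, against 69, 1, 17 and 12 by edgeR. The uncalled KO over WT values at day 14 changed sign for Isg20 (-0.54 to 0.04 over single libraries left out), Mx2 (-0.97 to 1.24, below 0 without KO day 14 mouse 1 and at -0.03 without WT day 14 mouse 1), Stat2 (-0.26 to 0.02) and Parp14 (-0.17 to 0.13, at -0.09 without KO day 14 mouse 2, and -0.01 with DESeq2 and with median-ratio scaling). The cause of these changes was not tested. Mouse numbers did not pair the samples: correlations of same-numbered deviations ran from -0.451 to 0.259, and 7 of 84 were over 0.1. With the mouse number as a replicate block, 32 members were called higher in WT mice at day 7 and 15 lower in WT mice from day 7 to day 21. With 3 mice a group and genes that share their mice, changes under about the intervals given were not resolvable.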

Other observations

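Besides Tmem140, 2 genes of the wider interferon-induced list were called between KO and WT mice. Slfn2, a Schlafen protein needed by resting T cells and monocytes, had 134, 139 and 166 CPM in naive KO mice and 347, 207 and 265 CPM in naive WT mice, with a log2 fold change of -0.90 ± 0.19 (SE, edgeR adjusted p = 0.039). All KO mice were below all WT mice, and the call was lost without any one of 5 of the 6 libraries, WT naive mouse 2 excepted, with adjusted p from 0.067 to 0.27, and with the replicate block (0.06). Trim30b, a close relative of Trim30a whose counts are uncertain for that reason, had 1.03, 0.375 and 0.150 CPM in KO mice and 0, 0.0321 and 0 CPM in WT mice at day 14 (edgeR adjusted p = 0.036; the call was lost with the replicate block, without both high-Rn45s libraries, and without KO day 14 mouse 2 or any 1 of the 3 WT day 14 mice, with adjusted p from 0.051 to 0.18). Trim30a did not share this direction: 2 of the 3 KO mice were below the WT mice.

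In the naive state the members were not uniform between mice. KO naive mouse 2 was lowest in 24 of 34 members, with a median log2(CPM + 1) of 1.85 against 2.43 and 2.27 in KO naive mice 1 and 3. WT naive mouse 1 was lowest in 22 and WT naive mouse 3 highest in 20, with medians of 2.41, 2.48 and 2.72 in WT naive mice 1, 2 and 3. At day 7 the members' medians were 5.11, 5.38 and 5.07 in KO mice and 5.33, 5.33 and 5.31 in WT mice.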
